A study of Mus musculus with 17 samples.

Results

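The genes of the tectorial membrane and of the otic extracellular matrix were examined in RNA from mouse cochleae. They were the 8 genes Tecta, Tectb, Otog, Otogl, Otoa, Ceacam16, Coch and Otos, chosen by name from the 35285 genes measured, and all 8 were found, each once. RNA sequencing covered 17 libraries, each from the cochleae of 1 wild-type C57BL/6J mouse: 3 in the control group, 7 after noise exposure (NE) and 7 after noise with brimonidine. All mice were male and 8 weeks old at the start, and tissue was taken on day 2 after NE. NE mice were exposed to noise between 8 and 16 kHz at 100 dB for 2 h, described in the labels as broadband. The brimonidine group was exposed in the same way and was treated with brimonidine, which activates α2-adrenergic receptors, by intraperitoneal injection at 1 mg/kg on 3 days: the day before NE, the day itself (0.5 h before the noise) and the day after. Control mice were not exposed and were injected with saline on the same regimen. No group analysed here received brimonidine without noise.

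The tectorial membrane is an acellular gel that lies over the organ of Corti and couples sound-driven motion to the hair bundles. It is built from collagens and from glycoproteins secreted by epithelial cells of the cochlea, among them the tectorins, otogelins and Ceacam16, and it is anchored to the spiral limbus through otoancorin. Cochlin and otospiralin belong to a different matrix, that of the fibrocytes in the spiral ligament and spiral limbus, and loss of many of these proteins is known to cause hearing loss.

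The deposited values were FPKM, fragments scaled to exon length and to the total counted in the library, and each library held between 14457731 and 18288849 fragments. FPKM is corrected for length, so levels of different genes are compared below on that scale. The libraries differed in the levels of marker genes of several cell types. The labels name interstitial cells, whereas marrow genes were among the highest in every library (S100a9, a neutrophil protein, from 3887 to 30213 FPKM), and a list of 10 hair cell genes summed to 14.8 to 33.1 FPKM. In control 2, S100a9 was at 3887 FPKM, against 18564 and 21797 FPKM in controls 1 and 3. The 7 cerebellum and hindbrain genes summed to 164, 441 and 171 FPKM in the 3 controls, to between 3.64 and 13.3 FPKM in the NE libraries and to between 3.95 and 49.4 FPKM in the brimonidine libraries. A single library set each upper limit: brimonidine 5 (49.4 FPKM, the others up to 6.15) and NE 1 (13.3 FPKM, the others up to 6.02). In bulk RNA, fewer cells of a type and less RNA per cell cannot be told apart.

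The 8 genes differed widely in level, with the fibrocyte matrix at the top and the tectorins at the bottom. Coch, which encodes cochlin, a major protein of the fibrocyte matrix, had a mean of 609 ± 139.6 FPKM (SD, n = 17) and was the 49th most abundant of all genes. Otos, which encodes the small secreted protein otospiralin, followed with 44.2 ± 17.8 FPKM, and Ceacam16, a secreted adhesion protein of the striated-sheet matrix, with 32.0 ± 7.86 FPKM. The large mucin-related otogelin gene Otog had 7.26 ± 2.30 FPKM. Otoa, which encodes otoancorin, had 3.76 ± 0.932 FPKM, and the otogelin-like gene Otogl 1.503 ± 0.420 FPKM. The tectorin genes were the lowest, with 0.668 ± 0.202 FPKM for Tectb and 0.570 ± 0.159 FPKM for Tecta. The tectorins rest on 20 to 68 (Tectb) and 22 to 104 (Tecta) fragments per library, against 19245 to 47314 for Coch.

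This order held in all 17 libraries for 5 of the 7 steps. Coch was above Otos by 9.57 to 29.9 times, Ceacam16 above Otog by 3.33 to 8.10 times, Otog above Otoa by 1.29 to 2.23 times, Otoa above Otogl by 2.15 to 3.56 times, and Otogl above Tectb by 1.12 to 3.49 times. The other two steps were within the spread between libraries. Otos was above Ceacam16 in 14 of 17 libraries, with a ratio from 0.488 to 2.30, and was below it in control 3, NE 6 and NE 7. Tectb was above Tecta in 12 of 17 libraries, with a ratio from 0.653 to 2.07.

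The 8 genes lie on 6 chromosomes of GRCm38 (mm10), where their positions are the same in the file and in GENCODE M21. Coch (ENSMUSG00000020953) is on chromosome 12 from 51593341 to 51605771 on the plus strand, and Otos (ENSMUSG00000044055) on chromosome 1 from 92644218 to 92648841 on the minus strand. Tectb (ENSMUSG00000024979) is on chromosome 19 from 55180733 to 55196313, plus strand, and Tecta (ENSMUSG00000037705) on chromosome 9 from 42329619 to 42399929, minus strand. Ceacam16 (ENSMUSG00000014686; chromosome 7, 19852097 to 19861299, minus strand) shares 380 exonic bases with Gm19345 on the opposite strand, which had a mean of 6.43 FPKM. The strand setting of the counting is not given, so reads of the pair may not be separate. Tecta shares 304 exonic bases with the antisense gene Gm47629, which was close to 0 (mean 0.00244 FPKM), and Tectb 57 with the miRNA gene Mir6715 on the same strand. Otog (chromosome 7, 46240987 to 46311434, plus strand), Otoa (chromosome 7, 121081650 to 121163097, plus strand) and Otogl (chromosome 10, 107760531 to 107912134, minus strand) share no exonic base with another gene.

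The 250 bases before the annotated start are shown for the 2 most abundant genes and for the tectorins, the 2 least abundant, from RefSeq on GRCm38.p6, 5′ to 3′ on the strand of the gene. They are chr12:51593091-51593340 (plus) for Coch, chr1:92648842-92649091 (minus) for Otos, chr19:55180476-55180725 (plus) for Tectb and chr9:42399948-42400197 (minus) for Tecta, the one of its 2 listed starts nearer to the gene model. Capitals mark matches on either strand to the TATA box TATAAA, the CCAAT box CCAAT, the GC box GGGCGG and the E-box CANNTG, motifs that may overlap one another.
Coch promoter: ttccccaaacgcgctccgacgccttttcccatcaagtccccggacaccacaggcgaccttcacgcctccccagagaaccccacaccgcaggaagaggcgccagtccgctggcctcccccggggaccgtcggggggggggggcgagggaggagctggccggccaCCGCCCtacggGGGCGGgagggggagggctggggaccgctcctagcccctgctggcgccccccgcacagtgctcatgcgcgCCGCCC
Otos promoter: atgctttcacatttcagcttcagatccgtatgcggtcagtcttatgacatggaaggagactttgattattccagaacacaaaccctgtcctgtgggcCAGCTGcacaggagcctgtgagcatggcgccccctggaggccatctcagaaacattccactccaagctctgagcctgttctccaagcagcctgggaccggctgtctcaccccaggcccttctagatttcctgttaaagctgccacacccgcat
Tectb promoter: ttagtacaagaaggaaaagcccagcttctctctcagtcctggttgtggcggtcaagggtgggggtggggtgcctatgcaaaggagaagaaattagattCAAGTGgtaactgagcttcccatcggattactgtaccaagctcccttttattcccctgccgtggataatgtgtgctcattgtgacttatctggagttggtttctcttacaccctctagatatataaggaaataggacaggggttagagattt
Tecta promoter: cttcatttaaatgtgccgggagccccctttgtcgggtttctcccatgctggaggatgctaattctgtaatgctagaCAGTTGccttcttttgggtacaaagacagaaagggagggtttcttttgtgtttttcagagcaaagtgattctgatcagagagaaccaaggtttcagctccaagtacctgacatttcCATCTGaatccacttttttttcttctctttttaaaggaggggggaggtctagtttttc

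Coch stood apart in base composition, with 74.8% G and C in this window against a median of 52.4% over the 32851 promoters of the table, 54.0% for Otos, 46.0% for Tectb and 43.2% for Tecta. Coch held 3 GC box matches and no match to the other motifs, and 32.7% of all promoters held a GC box. The windows of Otos and Tectb held 1 E-box match each and that of Tecta 2, a motif found in 66.2% of all promoters. No member window held TATAAA, which was in 12.4% of all promoters, and CCAAT (33.8% of all promoters) was found for Otog and Otoa. These matches describe the letters of the window only, and 6 of the 8 genes had an entry.

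**Figure D1:**
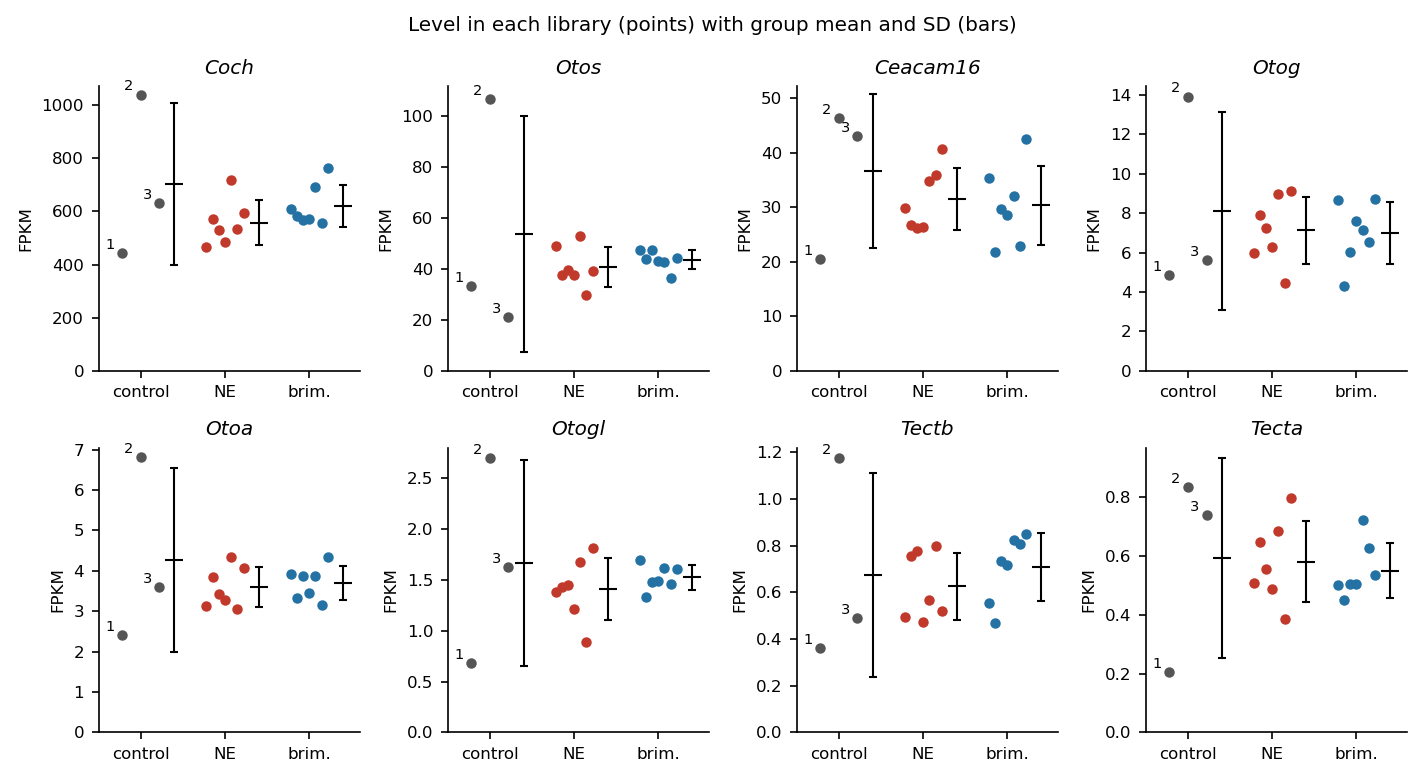
FPKM of each of the 8 genes (one panel each, vertical axes starting at 0 and differing in scale) in the 17 libraries, with points for libraries, digits for the control replicates and bars for the group mean ± SD. Control 2 is the highest point of every panel, and the NE and brimonidine libraries overlap in every panel.

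The largest differences were between the 3 controls rather than between groups. Coch was at 444, 1040 and 631 FPKM in controls 1, 2 and 3. The 7 NE libraries ranged from 467.5 to 719 FPKM (median 534) and the 7 brimonidine libraries from 555 to 763 FPKM (median 582). All exposed libraries lay between control 1, the lowest library, and control 2, the highest.

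Otos was at 33.2, 106.6 and 21.1 FPKM in controls 1, 2 and 3, a 5.06-fold range within the group. NE libraries ranged from 29.6 to 52.7 FPKM (median 39.1) and brimonidine libraries from 36.3 to 47.5 FPKM (median 43.7). Control 3 was the lowest of all libraries for this gene and control 2 the highest, and the exposed libraries fell between.

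Ceacam16 was at 20.6, 46.4 and 43.1 FPKM in controls 1, 2 and 3. It ranged from 26.2 to 40.8 FPKM (median 29.9) in the NE libraries and from 21.7 to 42.6 FPKM (median 29.7) in the brimonidine libraries. Here 2 of the 3 controls, 2 and 3, were above every exposed library and control 1 below every one.

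Otog was at 4.85, 13.9 and 5.62 FPKM in controls 1, 2 and 3. It ranged from 4.44 to 9.11 FPKM (median 7.27) in the NE libraries and from 4.30 to 8.70 FPKM (median 7.17) in the brimonidine libraries. Controls 1 and 3 lay low in the range of the exposed libraries, and control 2 above it. Its relative Otogl was at 0.679, 2.70 and 1.63 FPKM in controls 1, 2 and 3, from 0.890 to 1.81 FPKM (median 1.43) in the NE libraries and from 1.34 to 1.70 FPKM (median 1.49) in the brimonidine libraries. For Otogl control 3 was inside the exposed range, control 1 below it and control 2 above it.

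Otoa, the anchor to the limbus, was at 2.42, 6.81 and 3.60 FPKM in controls 1, 2 and 3. It ranged from 3.06 to 4.34 FPKM (median 3.43) in the NE libraries and from 3.15 to 4.35 FPKM (median 3.87) in the brimonidine libraries. The pattern was that of Otogl, with control 3 among the exposed libraries.

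Tecta, which encodes α-tectorin, was at 0.205, 0.836 and 0.738 FPKM in controls 1, 2 and 3, from 0.385 to 0.796 FPKM (median 0.555) in the NE libraries and from 0.451 to 0.721 FPKM (median 0.506) in the brimonidine libraries. Tectb, which encodes β-tectorin, was at 0.362, 1.17 and 0.488 FPKM in controls 1, 2 and 3, from 0.472 to 0.797 FPKM (median 0.5675) in the NE libraries and from 0.467 to 0.850 FPKM (median 0.733) in the brimonidine libraries. Control 1 was the lowest and control 2 the highest library for both. The values of the tectorins rest on few fragments, and counting alone gives a coefficient of variation of 11.7% for Tecta and 15.1% for Tectb at their mean depth.

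Counting error was a small part of the spread for the more abundant genes. Over all 17 libraries the coefficient of variation was 22.9% for Coch and 40.3% for Otos, against 0.566% and 2.08% from counting. Among the brimonidine libraries it was close to counting error for Otogl (7.97% against 6.51%), somewhat above it for Tecta (16.9% against 11.8%) and Tectb (20.6% against 14.5%), and far above it for Coch (12.6% against 0.553%). Control libraries varied most: their coefficient of variation was between 38.3% (Ceacam16) and 86.3% (Otos), compared with 13.9% to 23.8% in the NE group and 7.97% to 23.7% in the brimonidine group.

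The first question was whether the matrix genes differed after NE. None of the 8 was called. The test was limma on log2(FPKM + 1), a scale that understates the change of low genes, for every gene that reached 1 FPKM in 3 or more libraries of the comparison. A call needed an adjusted p under 0.05 and a 2-fold change in either direction (1 on the log2 scale). Of the 8 genes 6 were tested, since Tecta and Tectb were below this filter, and 0 of 6 were called against 5.76% of all 15950 genes tested. At an unadjusted p under 0.05, 0 of 6 passed against 32.9% of all genes, 0 of 6 were called by voom on recovered fragments against 7.94% of all 14034 genes it tested, and 0 of the 8 had groups that did not overlap, against 18.3% of all genes tested.

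The 95% interval of every log2 fold change of NE against control held 0. Coch had the largest, −0.26 (SE 0.245, 95% interval −0.80 to 0.28, adjusted p = 0.471). That interval runs from 0.57 to 1.21 times the control level on this scale. Ceacam16 had −0.15 (interval −0.66 to 0.37), Otoa −0.12 (−0.58 to 0.34), Otogl −0.08 (−0.55 to 0.38), Otos −0.08 (−0.92 to 0.77) and Otog −0.06 (−0.68 to 0.55). For the tectorins, the means of log2(FPKM + 1) differed by 0.01 for Tecta (exact two-sided permutation p = 0.933) and by −0.02 for Tectb (exact permutation p = 0.85). Over the 8 genes the exact permutation p lay between 0.367 and 0.933, where 7 libraries against 3 can give no p below 0.0083. The median of the 6 genes tested was −0.10, and that of all genes tested −0.04. A p over the threshold does not show that the levels were alike, and the intervals leave room for differences of up to 0.53-fold or 1.70-fold for Otos.

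**Figure D2:**
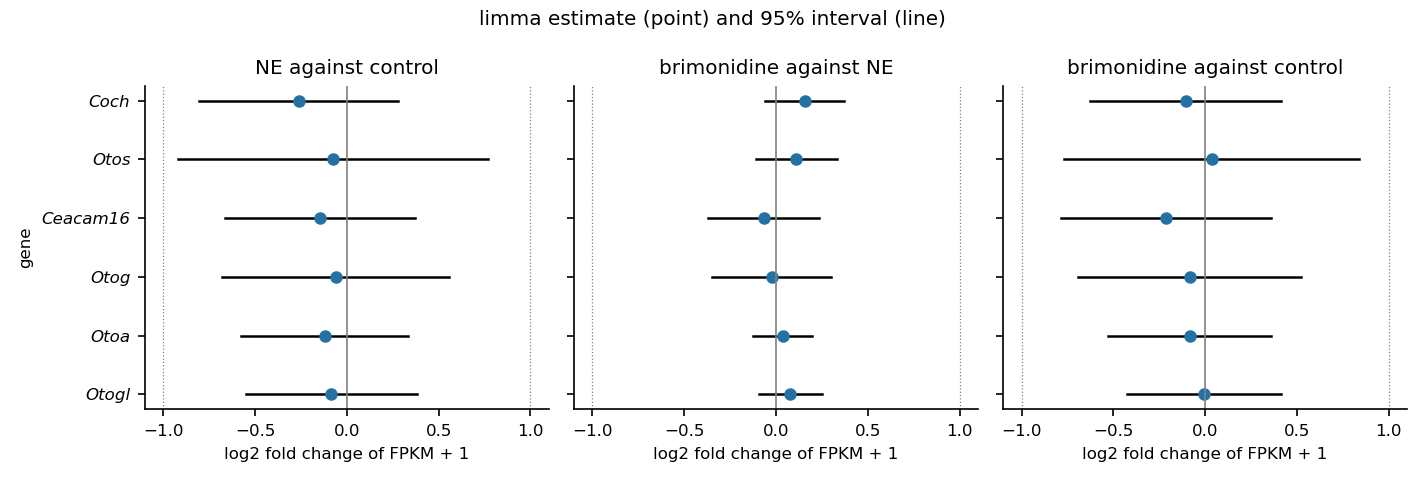
Log2 fold change of FPKM + 1 from limma (points) with its 95% interval (lines) for the 6 genes tested in each of the 3 comparisons. Dotted lines mark 1 and −1, the fold needed for a call, and every interval crosses 0. Tecta and Tectb were below the filter and are not drawn. Intervals of brimonidine against NE are narrower than those against control.

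The second question was whether brimonidine changed the matrix genes of exposed ears. None was called here either, in the comparison with the most libraries and no control. With limma 0 of 6 genes tested were called against 0% of all 15707 genes, 0 of 6 passed an unadjusted p under 0.05 against 5.77% of all genes, and voom called 0 of 6 against 0% of all genes it tested. The groups overlapped for all 8, and they did not overlap for 0.14% of all genes tested. Coch had the largest log2 fold change of brimonidine against NE, 0.16 (SE 0.101, 95% interval −0.06 to 0.37, adjusted p = 0.899, exact permutation p = 0.149), and all 7 brimonidine libraries were above the NE median. Otos had 0.11 (interval −0.11 to 0.33), with 6 of 7 brimonidine libraries above the NE median.

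For the genes of the tectorial membrane, the log2 fold change was 0.08 for Otogl (interval −0.10 to 0.25), 0.04 for Otoa (−0.12 to 0.20), −0.02 for Otog (−0.35 to 0.30) and −0.07 for Ceacam16 (−0.37 to 0.24). For Tectb the means of log2(FPKM + 1) differed by 0.07 (exact permutation p = 0.319), and for Tecta by −0.03 (exact permutation p = 0.659). The intervals for the 6 tested genes together ran from 0.77 to 1.30 times the NE level, on this scale, so a 2-fold difference was outside all of them. Coch passed an unadjusted threshold of 0.05 in limma with quantile normalization (log2 fold change 0.27, adjusted p = 0.765) and without NE 5, the NE library with the highest Coch (0.22, adjusted p = 0.940).

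Brimonidine against control used the same 3 controls as the first comparison. With limma 0 of 6 were called against 5.73% of all 15947 genes, 0 of 6 passed an unadjusted p under 0.05 against 35.6%, voom called 0 of 6 against 8.12% of the genes it tested, and 0 of the 8 had groups that did not overlap against 19.4%. The log2 fold change was −0.21 for Ceacam16 (95% interval −0.79 to 0.36, adjusted p = 0.58), −0.11 for Coch (−0.63 to 0.42), −0.08 for Otog (−0.69 to 0.52), −0.08 for Otoa (−0.53 to 0.36), −0.01 for Otogl (−0.43 to 0.41) and 0.04 for Otos (−0.77 to 0.84). The means of log2(FPKM + 1) differed by −0.02 for Tecta (exact permutation p = 0.967) and by 0.05 for Tectb (exact permutation p = 0.733).

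Control 2 set the direction of most of these differences. It was the highest of all 17 libraries for all 8 genes, from 1.56 times the median of the 14 exposed libraries for Ceacam16 to 2.49 times for Otos. Control 1 was the lowest of all libraries for 6 of the 8. With all 3 controls, NE was lower for 7 of the 8 genes. Without control 2 it was higher for 8 of 8 (median log2 difference 0.19), and without control 1 it was lower for 8 of 8 (median −0.35). Brimonidine was lower than control for 6 of 8 with all controls, higher for 7 of 8 without control 2 and lower for 8 of 8 without control 1.

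**Figure D3:**
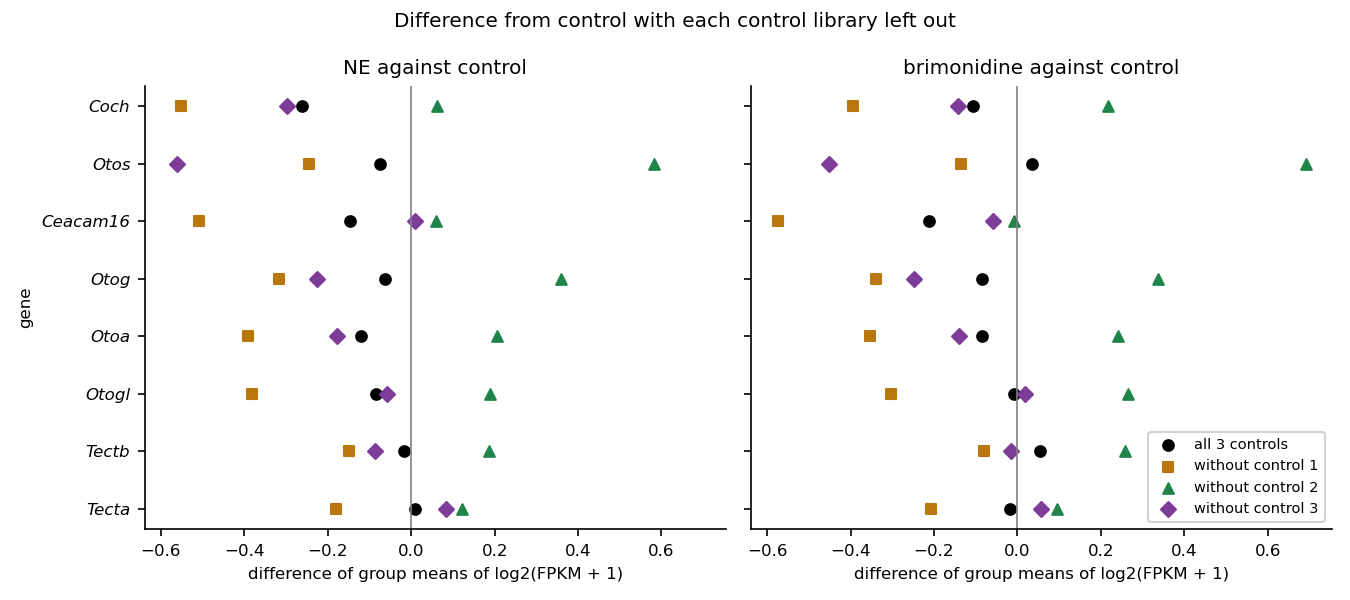
Difference of group means of log2(FPKM + 1) between NE and control (left) and between brimonidine and control (right) for the 8 genes, with all 3 controls and with each control left out. Triangles, without control 2, lie above 0 for all genes but Ceacam16 on the right (−0.01), and squares, without control 1, lie below 0 for all.

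Otos moved most with the choice of controls. Without control 2, its log2 fold change was 0.58 for NE (SE 0.208, adjusted p = 0.144), with 6 of 7 NE libraries above both remaining controls. For brimonidine it was 0.69 (SE 0.146, 95% interval 0.37 to 1.02, adjusted p = 0.0146, a threshold of 0.05 that 9.48% of all genes tested passed there), with 7 of 7 libraries above both, and it was below the fold needed for a call. With array weights, which count outlying libraries less, it was 0.84 for NE (adjusted p = 0.0027) and 0.91 for brimonidine (adjusted p = 0.000561), and in those fits 37.4% and 43.4% of all genes tested had an adjusted p under 0.05. Without control 3 it was −0.56 for NE and −0.45 for brimonidine (adjusted p = 0.278 and 0.322). Ceacam16, already lower than control, moved further from it without control 1: its log2 fold change was −0.51 for NE (SE 0.171, adjusted p = 0.0553) and −0.57 for brimonidine (SE 0.218, adjusted p = 0.0712).

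Ratios within a library do not depend on its total, and for 2 of the 5 ratios read the controls spread more widely than either exposed group. Coch was 13.4, 9.75 and 29.9 times Otos in controls 1, 2 and 3, against 9.57 to 18.0 times in the NE libraries and 12.0 to 17.2 times in the brimonidine libraries. Control 3 was outside the range of the exposed libraries for these fibrocyte genes. Otog was 7.14, 5.15 and 3.46 times Otogl in the controls, 4.35 to 5.53 times in the NE libraries and 3.22 to 5.41 times in the brimonidine libraries. For the tectorins the Tectb level was 1.76, 1.40 and 0.661 times that of Tecta in the controls, 0.653 to 2.07 times in the NE libraries and 1.03 to 1.59 times in the brimonidine libraries, which overlap throughout. Ceacam16 was 100, 55.5 and 58.4 times Tecta in the controls, 41.2 to 93.4 times in the NE libraries and 36.4 to 79.5 times in the brimonidine libraries. Coch was 21.6, 22.4 and 14.6 times Ceacam16 in the controls, 14.6 to 21.4 times in the NE libraries and 17.3 to 26.8 times in the brimonidine libraries.

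The other genes of the same matrix were read from fixed lists. The 6 collagens of the tectorial membrane (Col2a1, Col9a1, Col9a2, Col9a3, Col11a1 and Col11a2) were all tested and 0 of 6 were called in any comparison with limma, 0 at an unadjusted p under 0.05 and 0 of the 4 tested by voom. Col11a2, a chain of the fibrils in the membrane, was the highest, at 39.1, 89.9 and 27.6 FPKM in controls 1, 2 and 3, 38.5 to 65.0 FPKM in the NE libraries and 33.3 to 58.2 FPKM in the brimonidine libraries. Col2a1, the main fibrillar collagen there, was at 12.4, 37.8 and 11.5 FPKM in the controls and between 11.9 and 23.5 FPKM in the exposed libraries. As for the 8 matrix genes, control 2 stood above all exposed libraries, here for 5 of the 6 collagens, and the median log2 fold change of NE against control went from −0.02 with all controls to 0.37 without control 2.

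Of 14 other otic matrix and attachment genes, 8 were tested, and 1 was called lower in each comparison against control. It was Sparcl1, a secreted matrix protein that astrocytes make in the brain. Its level was 141, 385 and 138 FPKM in the controls, 63.1 to 105 FPKM in the NE libraries and 70.8 to 108 FPKM in the brimonidine libraries, with a log2 fold change of −1.21 for NE (adjusted p = 0.0209) and −1.19 for brimonidine (adjusted p = 0.0187). The call ended without control 2, where the log2 fold change was −0.73 for NE (adjusted p = 0.0357) and −0.70 for brimonidine (adjusted p = 0.0127), below the fold needed. All 7 cerebellum and hindbrain genes were called lower in both comparisons, and their part in the level of Sparcl1 was not tested. Emilin2, a glycoprotein of the basilar membrane that other tissues also make, was the only tested gene of this list that was lowest in control 2 (21.4 FPKM, against 62.4 and 62.3 FPKM in controls 1 and 3), and its log2 fold change for NE was 0.62 (adjusted p = 0.149). Otor, a fibrocyte protein, was at 20.7, 60.9 and 28.8 FPKM in the controls and from 17.2 to 37.3 FPKM in the exposed libraries. Lamb2, a basement membrane laminin, and Vit, or vitrin, were at 12.0 to 26.2 FPKM and 3.05 to 5.99 FPKM over all libraries. Col4a5, a basement membrane collagen, was between 1.66 and 3.45 FPKM, the otolith protein gene Otol1 between 0.832 and 1.81 FPKM, and Zpld1, a zona pellucida-like gene, between 0.712 and 1.27 FPKM. The others were below the filter.

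**Figure D4:**
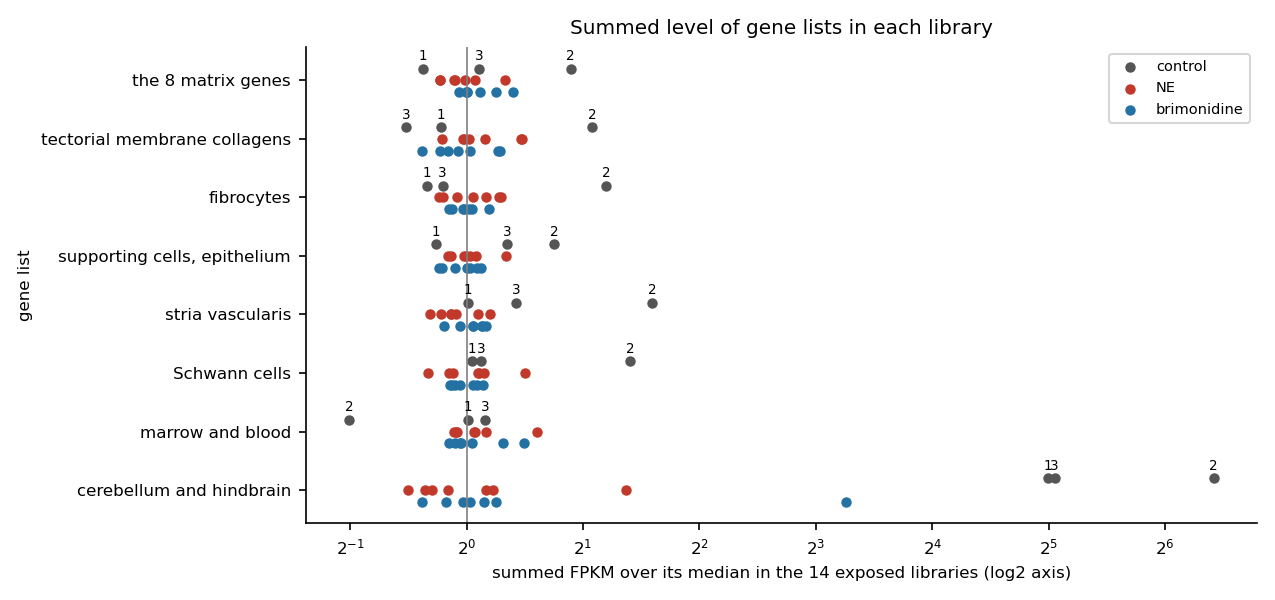
Summed FPKM of 8 gene lists in each library, divided by the median of the 14 exposed libraries (horizontal log2 axis, points are libraries, digits are control replicates). Control 2 is right of the exposed libraries for the matrix genes, collagens, fibrocytes, supporting cells, stria vascularis and Schwann cells, and left of them for marrow and blood. The cerebellum genes are far right in all 3 controls.

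Markers of several cochlear cell types were also high in control 2, though not all of them. The 6 fibrocyte genes summed to 125, 363 and 137 FPKM in controls 1, 2 and 3 and to between 134 and 194 FPKM in the exposed libraries, and all 6 were highest in control 2. The 11 genes of supporting cells and cochlear epithelium summed to 217, 440 and 332 FPKM in the controls and to between 221 and 330 FPKM in the exposed libraries, and 6 of them were highest in control 2. Krt8, an epithelial keratin, was lowest of all libraries there (18.1 FPKM). The 9 stria vascularis genes (158, 473 and 210 FPKM) and the 6 Schwann cell genes (185, 474 and 195 FPKM) were all highest in control 2. Of the 10 hair cell genes (17.4, 33.1 and 15.2 FPKM) 8 were highest there, as were 5 of the 7 bone genes (660, 1348 and 502 FPKM). None of the 5 skeletal muscle genes and none of the 5 middle ear genes was highest in control 2. The 8 marrow and blood genes summed to 30909, 15208 and 34160 FPKM, and 5 of them were lowest in control 2. Prox1 (supporting cells) and Atp1b2 (stria vascularis) were called lower in both comparisons against control. All 7 cerebellum and hindbrain genes were called lower there too, and their part in the levels of Prox1 and Atp1b2 was not tested. Prox1 reached 1 FPKM only in the 3 controls (1.62, 5.09 and 1.70 FPKM), so it fell below the filter with any control left out. It was at most 0.789 FPKM in the NE libraries and 0.731 FPKM in the brimonidine libraries. Without control 2, Atp1b2 fell below the fold needed (log2 fold change −0.96 for NE, adjusted p = 0.0014, and −0.87 for brimonidine, adjusted p = 0.00185). The skeletal muscle genes Acta1 and Ckm were called higher in NE against control (log2 fold change 1.17 and 1.05). Without control 2, 4 of the 5 muscle genes were called higher in NE, and in brimonidine 2 of them, Acta1 (1.42, adjusted p = 0.0177) and Ckm (1.27, adjusted p = 0.0394). The part of these cell types in the levels of the matrix genes was not tested.

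Between exposed libraries the matrix genes tended to rise and fall together. Over the 14 exposed libraries, with each value taken as its deviation from the group mean of log2(FPKM + 1), r was above 0 for 26 of the 28 pairs, with a median of 0.512. The highest was between Otog and Otogl (0.863), followed by Otoa and Coch (0.849) and Tecta and Otogl (0.806). Tectb stood outside this pattern, with r between −0.463 (Otos) and 0.252 (Coch). All values in a library share 1 total, and the 2 tectorins also carry the most counting error, so these values are given without a test.

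Set beside the marker lists in the same 14 libraries, Otoa and Coch followed the list of supporting cell and cochlear epithelium genes most closely. That list includes epithelial genes such as Krt8, so it does not mark supporting cells alone. In all, 24 relations of the 8 genes with the mean log2 level of 3 lists were computed, a choice made after the values were seen, and p was taken from 100000 permutations and adjusted over the 24. These p values are against no relation at all, while genes of 1 library share a total, so each is read beside the share of 14592 genes outside the lists, each averaging 1 FPKM or more, that had an r as far from 0 on the same side. For Otoa, r was 0.871 (permutation p = 8e-05, adjusted p = 0.0018; rho = 0.837, permutation p = 0.0004, adjusted p = 0.00424), a value reached by 0.0685% of other genes, and r was 0.880 without the 2 libraries farthest from the median. For Coch, r was 0.845 (permutation p = 0.00015, adjusted p = 0.0018; rho = 0.820, permutation p = 0.00053, adjusted p = 0.00424), reached by 0.151% of other genes, and r was 0.801 without the 2 farthest. Otogl passed with this list by rho alone (rho = 0.684, adjusted permutation p = 0.0265, reached by 2.87%; r = 0.541, adjusted permutation p = 0.0901).

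With the marrow and blood list, the values that passed were negative. Otog had r = −0.689 (adjusted permutation p = 0.0377; reached by 3.06%) and rho = −0.851 (adjusted permutation p = 0.00424; reached by 0.233%). Coch had r = −0.702 (adjusted permutation p = 0.0377; reached by 2.52%) and rho = −0.732 (adjusted permutation p = 0.0201; reached by 2.69%). Without the 2 farthest, r was −0.815 for Otog and −0.685 for Coch. By rho alone Otogl (−0.736, adjusted permutation p = 0.0201, reached by 2.69%), Otoa (−0.692, adjusted permutation p = 0.0265, reached by 4.63%) and Tecta (−0.684, adjusted permutation p = 0.0265, reached by 4.85%) also passed, with r of −0.507, −0.606 and −0.582 (adjusted permutation p = 0.109, 0.0674 and 0.0681). With the fibrocyte list, Otos had r = 0.628 (adjusted permutation p = 0.0674, reached by 4.02%; rho = 0.644, adjusted permutation p = 0.0417), Otogl r = 0.598 (adjusted permutation p = 0.0674, reached by 5.44%; rho = 0.587, adjusted permutation p = 0.0668) and Coch r = 0.617 (adjusted permutation p = 0.0674, reached by 4.45%; rho = 0.521, adjusted permutation p = 0.101). Without the 2 farthest, r fell to 0.473, 0.484 and 0.344. For Tectb, r was 0.0742, −0.239 and −0.130 with the supporting cell, fibrocyte and marrow lists, and −0.439 with the fibrocyte list without the 2 farthest.

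The genes most like each member over the 14 exposed libraries were taken from the 14672 others with a mean of at least 1 FPKM (14673 for Tecta and Tectb). For Coch they were Tspan3 (r = 0.919), Pbx3 (0.891) and Ssh3 (0.883), and for Otos Gm10563 (0.919), Tsc22d1 (0.873) and Slc29a1 (0.849). For Ceacam16 they were Fam180a (0.887), the potassium channel gene Kcnq1 (0.870) and Anxa5 (0.863), and for Otoa the epithelial splicing regulator Esrp2 (0.930), Nr2f2 (0.925) and Ddr1 (0.911). Otog was most like Aplp2 (0.953), Tm9sf4 (0.947) and Dag1 (0.946), and Otogl like Samd4b (0.923), Zhx3 (0.918) and Bcl9l (0.917). No gene stood among the 3 of more than 1 member. Tecta was most like Zfp84 (0.887), Il4 (0.867) and Usp54 (0.854), and Tectb like mt-Nd6 (0.842), Rph3al (0.834) and Tuba1a (0.819). With so many genes compared over 14 libraries, values of this size are a description only.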

How the data were processed

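RNA from 17 cochlear samples was made into stranded mRNA libraries by the authors. The deposited values are FPKM, which the authors made from fragments counted per gene. The submitters' processing notes name Trimmomatic, HISAT2, HTSeq, Cufflinks and mm10, with no versions. The strand setting is not given in the sources used here. Multiplied by merged exon lengths of GENCODE M21, between 90.9% and 91.6% of the values of a library were whole fragments, which gave the depth (tolerance 0.02 fragments plus 1e-06 per fragment).

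Groups were taken from the labels. The main test was limma (version 3.58.1, R 4.3.3; lmFit, then eBayes with trend) of log2(FPKM + 1). A model held 2 groups, a gene entered where 3 or more of their libraries reached 1 FPKM, and p values were adjusted by Benjamini-Hochberg over every gene that entered. The study's own test, DESeq2, was not run, and the recovered fragments were fitted with voom. All 8 genes, including those below the filter, were also compared with exact two-sided permutation tests of group means (Python 3.11.15, scipy 1.17.1, numpy 2.4.6, pandas 2.3.3). For the figures, matplotlib 3.10.9 was used. The fit was tested on simulated data.

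The members, the gene lists and the alternatives were chosen with earlier results of these data known. The text names all 8 members, the collagens, the other otic matrix genes that were called or had a mean of at least 1 FPKM, up to 3 genes of each other list (of these Krt8, and the muscle, stria and supporting cell genes named for a call, were picked after their values were seen), and the 3 genes most like each member. Other lists were read too. Bone genes summed to between 477 and 1348 FPKM, skeletal muscle genes to between 170 and 810 FPKM, and middle ear genes to between 899 and 1557 FPKM per library. Alternatives were a pseudocount of 0.1, no filter, 3 ways of rescaling (equal totals, the median ratio, quantiles), array weights, 1 model for all libraries, the replicate number as a block, no minimum fold change, voom on recovered fragments, and each library left out in turn.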

Additional observations from a re-analysis of the deposited data

Results flagged for a closer look

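In 1 of the 16 groups of 7 exposed libraries examined (8 genes in NE and in brimonidine), a library lay far from the rest. Otos in brimonidine 6 was at 36.3 FPKM, and the other brimonidine libraries lay between 42.7 and 47.5 FPKM. Its gap to the nearest library was 0.576 of the range of the group, above Dixon's critical value for a group of this size. Chance flags about 1 in 20 such groups.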

How the results depend on the processing

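The count of members called was 0 in all 3 comparisons and under all 64 alternative counts. Beside them, the main fit called 5.76% of all genes in NE against control, 5.73% in brimonidine against control and 0% in brimonidine against NE. In brimonidine against NE the alternatives called at most 1 of all genes, so 0 members called says little there. Of 452 alternative values of single members, 390 kept their direction and side of the threshold, 62 turned direction and 0 newly passed the threshold. Of the 16 differences from control recomputed without control 2, 12 turned direction. The cause was not tested.

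For NE against control, the turned values were these. Rescaling by the median ratio gave 0.049 for Otog, 0.047 for Otos and 0.04 for Tectb. Quantile normalization gave 0.043 for Otog, 0.18 for Otogl and 0.073 for Otoa. Array weights gave 0.348 for Otog, 0.049 for Otoa and 0.84 for Otos. Equal totals gave −0.009 for Tecta, and a pseudocount of 0.1 gave 0.024 for Tectb. For brimonidine against control, the median ratio gave 0.012 for Otog, 0.065 for Otogl, 0.005 for Otoa, 0.001 for Coch and 0.026 for Tecta. Quantile normalization gave 0.004 for Otog, 0.259 for Otogl, 0.103 for Otoa and −0.159 for Otos. Array weights gave 0.315 for Otog, 0.01 for Otogl, 0.057 for Otoa and 0.007 for Coch. A pseudocount of 0.1 gave 0.061 for Otogl and 0.053 for Tecta, and voom gave 0.066 for Otogl. The median of all genes in NE against control was −0.04 as deposited, 0.06 by the median ratio and 0.06 by quantiles.

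With each library left out in turn, NE against control ranged from −0.509 to 0.059 for Ceacam16, −0.552 to 0.061 for Coch, −0.391 to 0.206 for Otoa, −0.317 to 0.359 for Otog, −0.381 to 0.188 for Otogl, −0.562 to 0.581 for Otos, −0.181 to 0.122 for Tecta and −0.15 to 0.187 for Tectb. Brimonidine against control ranged from −0.395 to 0.218 for Coch, −0.354 to 0.242 for Otoa, −0.339 to 0.336 for Otog, −0.304 to 0.266 for Otogl, −0.452 to 0.691 for Otos, −0.207 to 0.096 for Tecta and −0.079 to 0.257 for Tectb. Brimonidine against NE ranged from −0.15 to 0.006 for Ceacam16, −0.115 to 0.072 for Otog and −0.057 to 0.006 for Tecta.

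The labels number the replicates of each group, but same-numbered libraries did not deviate together (r between −0.221 and 0.0832), so the numbers were not taken as pairs. With the replicate block, 0 of 6 members were called in each comparison, and the genes called went from 918 to 0 in NE against control and from 913 to 236 in brimonidine against control. In these 2 comparisons only replicates 1 to 3 are in both groups, so the block compares 3 pairs and loses the other exposed libraries. Only 3 controls, which differed widely from each other, and 20 to 104 fragments per library for the tectorins, limit what can be seen.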
